A study of Mus musculus with 24 samples.

Results

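Of the 18193 genes read by 24 mouse arrays of the small intestine, 10 are described here: the bile acid genes Fabp6, Slc10a2, Slc51a, Slc51b, Nr1h4, Nr0b2 and Fgf15, and 3 others named as distal, Plb1, Osr2 and Cubn. They were chosen by name as a read of position along the intestine. Per gene the brightest probe set on average over the 24 arrays was taken, and 15 probe sets carried one of the 10 symbols. No difference between groups entered that rule, but the list was drawn up with earlier results of these data known, so the tests below describe the arrays and are not independent evidence about the list. RNA came from crypts, the pits that hold stem and dividing cells, and from villi, the folds covered by differentiated cells. There were 4 genotypes: wild type (WT), Rb-/- (Rb), E2f1-/-;E2f2-/-;E2f3-/-, called TKO, and the same with Rb-/- added (QKO). Each genotype and compartment had 3 arrays, which makes 8 groups. All mice, WT included, were of a C57BL/6;FVB background, aged 2 months, and had received an intraperitoneal injection of beta-naphthoflavone, which activates the aryl hydrocarbon receptor, 7 days earlier. The sources used here do not give the segment of small intestine, the number of animals or any promoter that drove the deletions. Whether each array of a group had its own animal is not stated in the labels, so p-values measure the spread between these arrays, which may in part be technical. Values are log2 expression, and differences are log2 differences ± SE from 1 limma fit over all 24 arrays, with Benjamini-Hochberg adjustment over all 18193 genes. Genes with an adjusted p under 0.05 are termed called.

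Bile acids are made in the liver, help to absorb fat in the upper small intestine, and are taken back up in the ileum, its last segment. The transporter Slc10a2 carries them into the ileal enterocyte, the cytosolic protein Fabp6 binds them there, and the paired Slc51a and Slc51b proteins export them to the blood. Inside the cell they activate the nuclear receptor Nr1h4 (FXR), which drives Fabp6, Slc51a, Slc51b, Nr0b2 (SHP, a co-repressor) and Fgf15, a hormone that restrains bile acid synthesis in the liver. Cubn (cubilin) is the receptor for vitamin B12 bound to intrinsic factor in the ileum, Plb1 is a brush border phospholipase, and Osr2 is a zinc finger transcription factor.

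The label could be checked only as far as detection, since no sample of known position is among the arrays. Slc10a2, the uptake transporter, lay below the array's own median on 24 of 24 arrays. Fgf15 lay below it on 11 of 24, Fabp6 on 7 and Plb1 on 4. The other 6 genes lay above it on every array. A place above or below the median depends on the probe set as well as on the gene, and does not show which segment was sampled. The table holds no detection calls, so where a group reads near the array medians, 4.97 to 5.26, the log2 difference is given with no fold, and the true difference may be larger.

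Promoter windows were found for 8 of the 10 genes, from RefSeq on GRCm38.p6. They were searched on both strands for AGGTCA followed after 1 base by its inverted copy, the repeat bound by FXR (IR-1, up to 2 mismatches), for GTTAAT followed after 1 base by its inverted copy, bound by HNF1 factors (up to 2 mismatches), and for TCAAGGTCA, bound by NR5A receptors (up to 1 mismatch). The NR5A letters share AGGTCA with the inverted repeat. The window of Fabp6, the bile acid binding protein, and that of Slc10a2, the uptake transporter, are shown because each held a match to a motif of a factor known to act on that gene. Each runs 250 bases up to the start site, chr11:43601563-43601812 on the minus strand for Fabp6 and chr8:5105288-5105537 on the minus strand for Slc10a2, with motif matches in capitals.
Fabp6: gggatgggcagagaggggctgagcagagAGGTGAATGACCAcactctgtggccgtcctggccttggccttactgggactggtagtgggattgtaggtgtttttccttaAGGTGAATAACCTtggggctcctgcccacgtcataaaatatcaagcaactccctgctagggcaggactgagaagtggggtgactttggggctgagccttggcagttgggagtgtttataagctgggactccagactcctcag
Slc10a2: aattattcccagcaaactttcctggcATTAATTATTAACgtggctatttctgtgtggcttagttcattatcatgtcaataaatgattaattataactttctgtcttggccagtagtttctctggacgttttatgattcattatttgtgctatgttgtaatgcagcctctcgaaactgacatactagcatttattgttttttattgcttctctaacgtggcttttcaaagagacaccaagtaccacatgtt
The Fabp6 window held 2 inverted repeats, at 222 to 210 and at 142 to 130 bases before the start, with 2 mismatches each. The Slc10a2 window held 1 HNF1 match with 1 mismatch, 224 to 212 bases before the start. Matches with 2 mismatches were also found for the inverted repeat in Cubn, 118 to 106 bases before the start, and for the HNF1 motif in Nr1h4, 40 to 28 bases before the start. No match to any of the 3 motifs was found in Slc51a, Slc51b, Nr0b2 or Plb1. Of 32619 such windows over 26794 genes, 0.966% held the inverted repeat, 1.24% the HNF1 motif and 6.38% the NR5A motif under the same limits. A match describes letters only.

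Features of the arrays bear on every comparison below, between genotypes and between compartments. The mean of 15 probe sets for added poly-A control RNA was 5.01 to 6.25 on the 12 WT and Rb arrays and 8.28 to 10.06 on the 12 TKO and QKO arrays, so in QKO or TKO against WT or Rb, loss of E2f1 to E2f3 and this split in the controls cannot be told apart. Rb against WT and QKO against TKO lie within 1 side of this split, but in villi the controls also separated QKO (9.64 to 10.06) from TKO (8.96 to 9.15), as did the hybridization controls (11.03 to 11.26 and 10.50 to 10.71), so there too they cannot be told apart from genotype. In crypts both kinds of control overlapped between QKO and TKO. The hybridization controls also separated crypts from villi in each genotype. They read 10.51 to 10.86 and 9.94 to 10.20 in WT, and 10.60 to 10.81 and 9.99 to 10.09 in Rb. In TKO they read 10.30 to 10.46 and 10.50 to 10.71, and in QKO 10.29 to 10.80 and 11.03 to 11.26. The poly-A controls did so in Rb (5.01 to 5.29 and 5.35 to 6.25) and QKO (8.28 to 8.90 and 9.64 to 10.06). In villi minus crypts, compartment and these controls cannot be told apart. By the Y-linked gene Eif2s3y, 10 of the 12 TKO and QKO arrays were male, with all QKO arrays among them, against 2 of the 12 WT and Rb arrays, both of them Rb villi. Sex varied within a group only in Rb villi, where number 2 was female, and in TKO crypts and villi, where number 1 was. A covariate for sex rests on those few arrays and cannot be told apart from other differences between them and their group mates. The Rb1 transcript, the targeted gene, went against the label on the library labelled WT crypts 3 (8.46, with 10.31 and 10.59 on the other WT crypt arrays) and on the library labelled Rb crypts 2 (10.25, with 8.23 and 8.87 on the others). Comparisons that use either group rest partly on these libraries. The compartment labels were borne out by villi minus crypts in WT, where 5 of 5 proliferation genes, 4 of 4 stem cell genes and 3 of 3 Paneth cell genes were called lower, as were 18.6% of all genes.

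**Figure D1:**
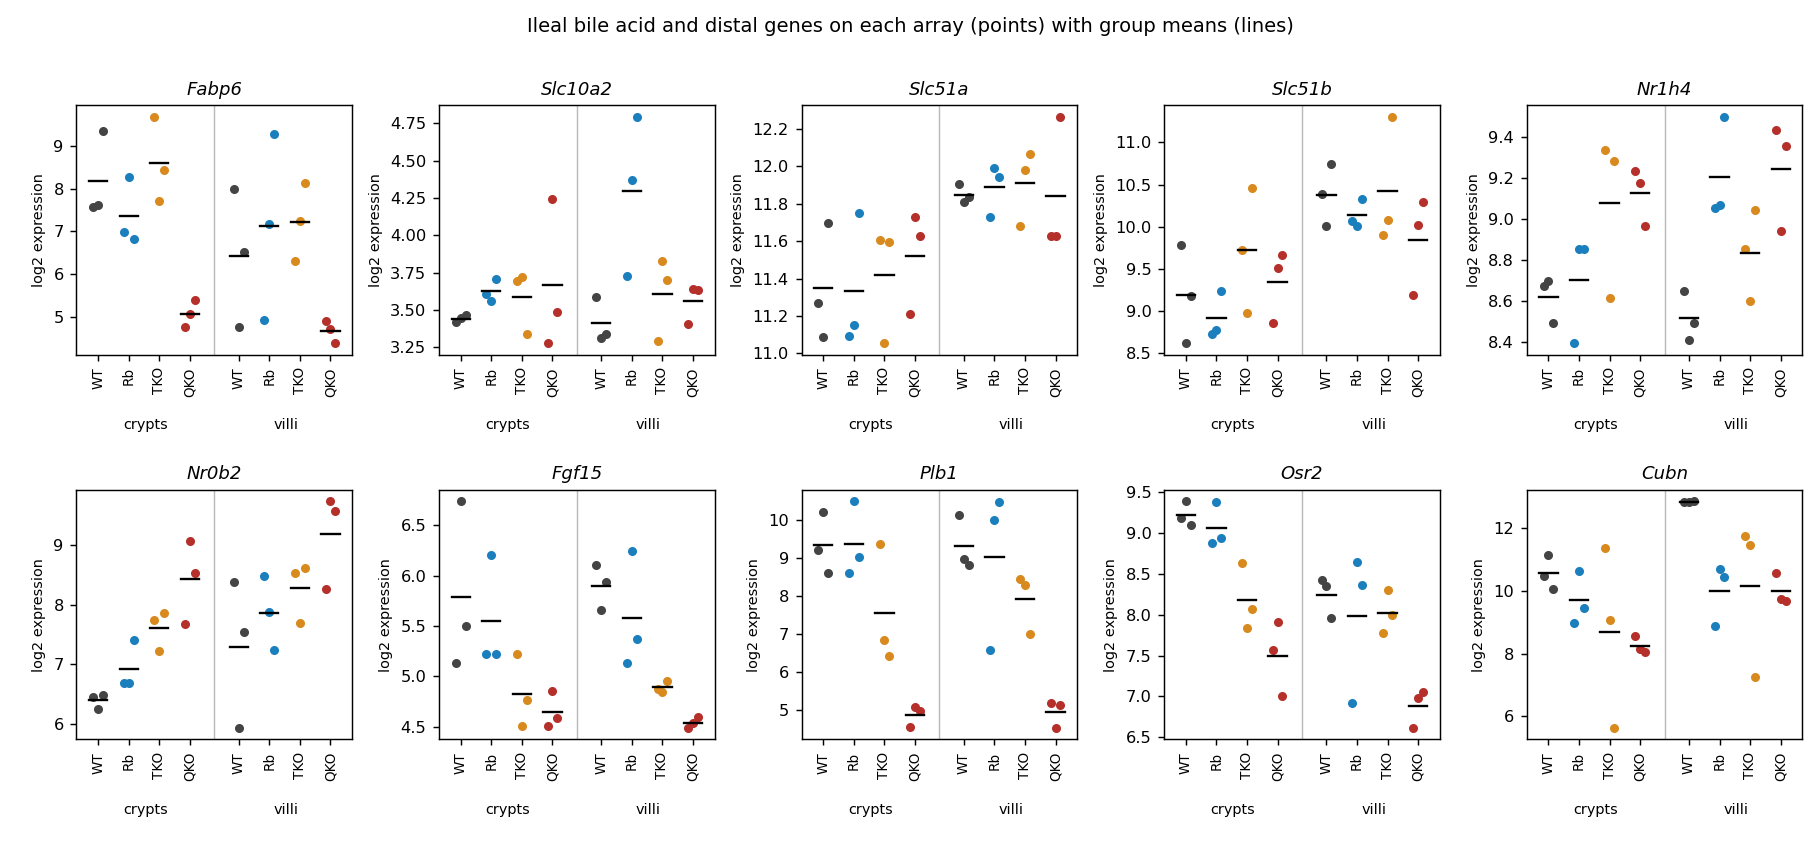
Log2 expression (vertical axis, a separate range for each gene) of the 10 genes on each of the 24 arrays, by genotype and compartment. Points are arrays and lines are group means. The QKO arrays are lowest for Fabp6 in crypts (4.75 to 5.39) and for Plb1 in both compartments (4.53 to 5.20), and Slc10a2 stays below 4.80 on every array.

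Fabp6, which binds bile acids inside ileal enterocytes, was lowest on the QKO arrays. In crypts it read 7.56, 7.60 and 9.34 in WT, 6.98, 8.28 and 6.82 in Rb, 9.68, 7.71 and 8.44 in TKO, and 4.75, 5.05 and 5.39 in QKO. All 3 QKO crypt arrays lay below all 9 other crypt arrays, as 1.14% of all genes did. Such a share was counted only for QKO below all other genotypes of a compartment. Other groups described below as not overlapping have no share of all genes beside them, so they may be common. The QKO values lie near the array medians. QKO crypts were called lower than WT crypts (-3.10 ± 0.84, limma adjusted p = 0.0177) and TKO crypts (-3.54 ± 0.84, limma adjusted p = 0.0344). Against Rb crypts the difference was -2.30 ± 0.84 (limma adjusted p = 0.0655), with no overlap between arrays. In bulk tissue, fewer cells of a type and less RNA per cell cannot be told apart. In villi the other genotypes ranged widely: 7.98, 4.76 and 6.51 in WT, 4.91, 7.17 and 9.27 in Rb, and 6.30, 7.24 and 8.13 in TKO. The QKO villus arrays read 4.90, 4.71 and 4.37, so they overlapped with WT but not with Rb or TKO. QKO villi were called lower than Rb villi (-2.46 ± 0.84, limma adjusted p = 0.0405), while the differences from TKO (-2.56 ± 0.84, limma adjusted p = 0.0744) and WT (-1.76 ± 0.84, limma adjusted p = 0.166) did not pass. Leaving out 1 array ended several of these calls. Without WT crypts 3 the difference of QKO from WT in crypts was -2.52 (limma adjusted p = 0.0977), and without QKO crypts 1 or QKO crypts 2 it was -2.95 (limma adjusted p = 0.0548) and -3.10 (limma adjusted p = 0.0564). The call against TKO in crypts was lost without TKO crypts 1 (-3.01), TKO crypts 3 (-3.63), QKO crypts 1 (-3.39) or QKO crypts 2 (-3.54). In villi the call against Rb was kept only without Rb villi 1, and without Rb villi 3 the difference was -1.38. A covariate for sex gave -3.0 from WT in crypts (limma adjusted p = 0.127), -3.51 from TKO in crypts (limma adjusted p = 0.0553) and -2.42 from Rb in villi (limma adjusted p = 0.0584).

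Slc10a2, the sodium-dependent transporter that brings bile acids into the enterocyte, stayed near the bottom of the scale in every group. Group means ran from 3.41 in WT villi to 4.30 in Rb villi, and each group overlapped with its neighbours in that order. The Rb villus arrays read 3.73, 4.37 and 4.79, against 3.59, 3.31 and 3.34 in WT villi, 3.61, 3.56 and 3.71 in Rb crypts, and 3.41, 3.64 and 3.63 in QKO villi. All 3 Rb villus arrays were above each of those groups. Rb villi were called higher than WT villi (0.89 ± 0.22, limma adjusted p = 0.00833) and Rb crypts (0.67 ± 0.22, limma adjusted p = 0.0407), and QKO villi were called lower than Rb villi (-0.74 ± 0.22, limma adjusted p = 0.0199). All of these readings lie below the array medians. Without Rb villi 3 these were 0.64 (limma adjusted p = 0.078), 0.42 (limma adjusted p = 0.241) and -0.49 (limma adjusted p = 0.146), and none passed. Rb villi 2 and the Rb crypt arrays 1 and 2 each ended the call between compartments when left out (0.64 to 0.66). Leaving out Rb villi 2 (-0.70) or QKO villi 1 (-0.66) ended the QKO call. The QKO crypt arrays (3.28, 4.24 and 3.49) and the WT crypt arrays (3.42, 3.45 and 3.46) overlapped, with a difference of 0.23 (95% interval -0.24 to 0.69).

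Slc51a and Slc51b, the subunits of the basolateral bile acid exporter, were read well above the array medians in every group. Slc51a read 11.05 to 11.75 on the crypt arrays and 11.63 to 12.26 on the villus arrays. Its villus mean was above its crypt mean in each genotype, by 0.32 to 0.56, and none of the 4 differences passed in the fit over all arrays. Slc51b read 9.78, 8.62 and 9.18 in WT crypts and 10.39, 10.01 and 10.74 in WT villi. Rb gave 8.73, 8.78 and 9.24 in crypts and 10.07, 10.01 and 10.33 in villi. In both genotypes every villus array was above every crypt array. The WT difference was 1.19 ± 0.38 (2.28-fold, limma adjusted p = 0.0189) and the Rb difference 1.22 ± 0.38 (2.33-fold, limma adjusted p = 0.0324). The WT call was lost without WT crypts 2 (0.90, limma adjusted p = 0.113) or WT villi 3 (1.0, limma adjusted p = 0.0848), and the Rb call was kept only without Rb crypts 3, with values between 1.12 and 1.29 where it was lost. In TKO and QKO same-numbered crypts and villi were taken as pairs. This is inferred from correlations given in the processing section and is not stated in the labels. The paired Slc51b differences were 0.17, 1.10 and 0.84 in TKO and 0.33, 0.52 and 0.63 in QKO. All 6 were above 0. The means, 0.70 ± 0.38 (limma adjusted p = 0.257) and 0.49 ± 0.38 (limma adjusted p = 0.357), did not pass, and with the pair as a block they did (0.70 ± 0.18, limma adjusted p = 0.0139, and 0.49 ± 0.18, limma adjusted p = 0.0465). The blocked fit also blocked WT and Rb arrays by number, and its SE was 0.18 in all 4 genotypes. It called Slc51a higher in villi in WT (limma adjusted p = 0.0365) and Rb (limma adjusted p = 0.0362), where the numbers do not pair, and not in TKO or QKO. A fit to the WT arrays alone also called Slc51a (0.50 ± 0.14, limma adjusted p = 0.0199), and a fit to the Rb arrays alone did not (limma adjusted p = 0.0812). Between genotypes neither exporter gene was called by limma in any of the 10 comparisons, and each 95% interval held 0. QKO minus TKO was 0.10 in crypts (95% interval -0.33 to 0.53) and -0.07 in villi (95% interval -0.50 to 0.36) for Slc51a, and -0.38 (95% interval -1.18 to 0.42) and -0.59 (95% interval -1.39 to 0.21) for Slc51b.

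Nr1h4, the bile acid receptor itself, varied little. In villi it read 8.65, 8.41 and 8.49 in WT, 9.05, 9.07 and 9.50 in Rb, 8.85, 8.60 and 9.05 in TKO, and 9.43, 8.94 and 9.36 in QKO. The WT villus arrays were the low group, with every Rb and QKO array above them. Rb villi were called 1.61-fold higher than WT villi (0.69 ± 0.19, limma adjusted p = 0.0154) and QKO villi 1.65-fold higher (0.73 ± 0.19, limma adjusted p = 0.0112). The QKO call was kept without each of its 6 arrays in turn. The Rb call was lost without WT villi 2 (0.64, limma adjusted p = 0.06), WT villi 3 (0.68, limma adjusted p = 0.0535) or Rb villi 3 (0.54, limma adjusted p = 0.108). Adjusted for sex, the QKO difference was 0.80 (limma adjusted p = 0.0637), while the Rb call was kept. In crypts all arrays lay between 8.40 and 9.34, and QKO minus WT was 0.50 ± 0.19 (limma adjusted p = 0.0823).

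Nr0b2, the co-repressor induced by the receptor, was the gene of the list called higher in QKO than in WT in both compartments. Its crypt values were 6.45, 6.25 and 6.49 in WT, 6.70, 6.69 and 7.41 in Rb, 7.75, 7.22 and 7.86 in TKO, and 7.69, 9.07 and 8.53 in QKO. The WT arrays were the lowest of all crypt arrays, and QKO overlapped with TKO through QKO crypts 1. QKO crypts were 4.09-fold above WT crypts (2.03 ± 0.49, limma adjusted p = 0.00825) and 2.83-fold above Rb crypts (1.5 ± 0.49, limma adjusted p = 0.0383). TKO minus WT was 1.22 ± 0.49 (limma adjusted p = 0.163), with no overlap between arrays. In villi it read 8.38, 5.94 and 7.54 in WT, 8.49, 7.88 and 7.24 in Rb, 8.54, 7.70 and 8.61 in TKO, and 8.27, 9.73 and 9.57 in QKO. QKO villi were called higher than WT villi (3.74-fold, 1.90 ± 0.49, limma adjusted p = 0.0104) although QKO villi 1 lay below WT villi 1. That call was lost without WT villi 2 (1.23, limma adjusted p = 0.0803), the call against WT in crypts without QKO crypts 2 (1.71, limma adjusted p = 0.0567), and the call against Rb in crypts without QKO crypts 2 (1.18), QKO crypts 3 (1.45), Rb crypts 1 (1.38) or Rb crypts 2 (1.38). When sex was a covariate the call against WT in crypts was kept (2.23, limma adjusted p = 0.046), and the villus difference was 2.10 (limma adjusted p = 0.058) and that from Rb crypts 1.70 (limma adjusted p = 0.119). QKO minus TKO did not pass in crypts (0.82 ± 0.49, limma adjusted p = 0.397) or villi (0.91 ± 0.49, limma adjusted p = 0.305).

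Fgf15, the hormone released by the ileum in response to bile acids, was dim and was called lower in QKO than in WT in both compartments. It read 6.10, 5.66 and 5.94 in WT villi, 5.14, 6.25 and 5.37 in Rb villi, 4.88, 4.84 and 4.95 in TKO villi, and 4.49, 4.54 and 4.59 in QKO villi. Every TKO and QKO villus array was below every WT and Rb villus array, a separation whose share over all genes was not counted. All 6 TKO and QKO villus arrays lay below their own array medians, where no order between TKO and QKO is read. QKO villi were called lower than WT villi (-1.36 ± 0.33, limma adjusted p = 0.00701), a call kept without each of the 6 arrays in turn. They were below Rb villi by -1.04 ± 0.33 (limma adjusted p = 0.0258), a call lost without Rb villi 2 (-0.71, limma adjusted p = 0.163), QKO villi 1 (-1.02), QKO villi 2 (-1.04) or QKO villi 3 (-1.07). TKO minus WT in villi was -1.01 ± 0.33 and did not pass (limma adjusted p = 0.0549). In crypts the WT arrays spread more, at 5.14, 6.74 and 5.50, with Rb at 5.22, 6.21 and 5.22, TKO at 5.22, 4.51 and 4.76, and QKO at 4.51, 4.86 and 4.59. QKO crypts were called lower than WT crypts (-1.14 ± 0.33, limma adjusted p = 0.0246). Without WT crypts 2 that difference was -0.67 (limma adjusted p = 0.166), and it was -1.07 without QKO crypts 1 and -1.11 without QKO crypts 3, also not called. With sex as a covariate it was -0.62 in crypts (limma adjusted p = 0.425), and in villi it was -0.85 against WT (limma adjusted p = 0.228) and -0.87 against Rb (limma adjusted p = 0.0566).

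Plb1, the brush border phospholipase, showed the largest differences of QKO from WT and from Rb among the 10 genes. In crypts it read 9.22, 10.23 and 8.61 in WT, 8.62, 10.50 and 9.04 in Rb, 9.38, 6.86 and 6.42 in TKO, and 4.56, 5.07 and 4.99 in QKO. In villi the values were 10.15, 8.97 and 8.82 in WT, 6.59, 10.01 and 10.50 in Rb, 8.47, 8.29 and 7.00 in TKO, and 5.20, 4.53 and 5.12 in QKO. Every QKO array lay below every other array of its compartment, as 1.14% of all genes did in crypts and 1.92% in villi. The QKO values lie near the array medians. QKO was called lower than WT in crypts (-4.48 ± 0.81, limma adjusted p = 0.000993) and in villi (-4.36 ± 0.81, limma adjusted p = 0.00091). It was also called lower than Rb in crypts (-4.51 ± 0.81, limma adjusted p = 0.000657) and in villi (-4.08 ± 0.81, limma adjusted p = 0.001). These 4 calls were kept without each array in turn. Against TKO, QKO villi were called lower (-2.97 ± 0.81, limma adjusted p = 0.03), a call lost without TKO villi 1 (-2.69), TKO villi 2 (-2.79), QKO villi 2 (-2.76) or QKO villi 3 (-3.05), and QKO crypts differed by -2.68 ± 0.81 without passing (limma adjusted p = 0.0972). TKO crypts 2 and 3 lay below all WT and Rb crypt arrays and TKO crypts 1 did not, and TKO minus WT did not pass in crypts (-1.80 ± 0.81, limma adjusted p = 0.219) or villi (-1.39 ± 0.81, limma adjusted p = 0.344). Adjusted for sex, QKO minus WT was -2.80 in crypts (limma adjusted p = 0.0784) and -2.69 in villi (limma adjusted p = 0.0873). QKO minus Rb was then -2.84 in crypts (limma adjusted p = 0.0628) and -3.52 in villi (limma adjusted p = 0.00172, still called), and QKO minus TKO in villi was -2.41 (limma adjusted p = 0.0563). Of the 3 other Plb1 probe sets, all of lower mean, 1 repeated the crypt calls (QKO minus WT -1.93 ± 0.39, limma adjusted p = 0.00219, and QKO minus Rb -1.95 ± 0.39, limma adjusted p = 0.00142, in a fit of every probe set) and was also lower in TKO than WT crypts (-1.46 ± 0.39, limma adjusted p = 0.0218). None repeated the villus call against WT.

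Osr2, a zinc finger transcription factor known from palate and limb development, fell from crypts to villi in WT and Rb and was lowest in QKO. Its crypt values were 9.18, 9.39 and 9.10 in WT, 8.88, 9.38 and 8.94 in Rb, 8.63, 7.84 and 8.07 in TKO, and 7.57, 7.91 and 7.00 in QKO. In villi they were 8.42, 8.35 and 7.96 in WT, 6.92, 8.65 and 8.37 in Rb, 7.78, 8.31 and 7.99 in TKO, and 6.61, 6.98 and 7.06 in QKO. All TKO and QKO crypt arrays lay below all WT and Rb crypt arrays, and the QKO villus arrays lay below all other villus arrays except Rb villi 1 (6.92). QKO was called lower than WT in crypts (3.31-fold, -1.73 ± 0.32, limma adjusted p = 0.0013) and in villi (2.57-fold, -1.36 ± 0.32, limma adjusted p = 0.0063), and lower than Rb in crypts (2.97-fold, -1.57 ± 0.32, limma adjusted p = 0.00195). These 3 calls were kept without each array in turn. With sex as a covariate they were -1.29 (limma adjusted p = 0.0653), -0.92 (limma adjusted p = 0.185) and -1.14 (limma adjusted p = 0.0916). QKO villi were also called lower than Rb villi (-1.10 ± 0.32, limma adjusted p = 0.0175) and TKO villi (-1.14 ± 0.32, limma adjusted p = 0.0358). The call against Rb was lost without Rb villi 2 (-0.76), Rb villi 3 (-0.90) or QKO villi 1 (-0.96), and that against TKO without any 1 of its 6 arrays (-1.27 to -1.0). The sex covariate kept the first (-0.95, limma adjusted p = 0.0391) and not the second (-1.0, limma adjusted p = 0.0746). Villi minus crypts was -0.98 ± 0.32 in WT (limma adjusted p = 0.0205) and -1.09 ± 0.32 in Rb (limma adjusted p = 0.0236). The WT call was lost without WT crypts 2 (-0.90) or WT villi 3 (-0.83), and the Rb call without Rb crypts 2 (-0.93) or Rb villi 1 (-0.56). TKO minus WT in crypts was -1.04 ± 0.32 and did not pass (limma adjusted p = 0.065). A second Osr2 probe set, below the median on all 24 arrays, showed none of these differences.

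Cubn, the vitamin B12 receptor of the ileal brush border, differed most between arrays of a group. It read 12.84, 12.84 and 12.86 in WT villi, above every other array. The other villus groups were 8.88, 10.71 and 10.45 in Rb, 11.75, 11.47 and 7.25 in TKO, and 10.59, 9.75 and 9.69 in QKO. In crypts the values were 10.46, 11.16 and 10.08 in WT, 8.99, 10.66 and 9.46 in Rb, 11.38, 9.09 and 5.63 in TKO, and 8.56, 8.16 and 8.06 in QKO. The TKO arrays numbered 3 were the lowest of their compartment in both crypts and villi. A second Cubn probe set gave the same order there, at 10.56, 8.19 and 5.01 in TKO crypts and 10.93, 10.62 and 6.55 in TKO villi. Because the fit pools the spread of all groups, the SE was 1.05 and no Cubn difference was called, although in Rb, TKO and QKO every villus array lay below every WT villus array (-2.83, limma adjusted p = 0.0755, -2.69, limma adjusted p = 0.117, and -2.83, limma adjusted p = 0.0682). A fit to only the groups compared, which leaves out TKO here, called Cubn lower in QKO than in WT (villi -2.83 ± 0.22, limma adjusted p = 0.000405; crypts -2.30 ± 0.25, limma adjusted p = 0.000809) and lower in Rb than in WT villi (-2.83 ± 0.38, limma adjusted p = 0.000816). It also called Cubn lower in QKO than in Rb crypts (-1.44 ± 0.37, limma adjusted p = 0.0484). In the fit over all arrays with sex as a covariate, QKO minus WT was -0.35 in villi (limma adjusted p = 0.902) and turned to 0.18 in crypts (limma adjusted p = 0.956), QKO minus Rb in crypts turned to 1.04 (limma adjusted p = 0.652), and Rb minus WT in villi was -1.17 (limma adjusted p = 0.551). The female TKO arrays, numbered 1, read 11.38 and 11.75 and those numbered 3 read 5.63 and 7.25, so these values depend on the spread within TKO. Villi minus crypts was 2.28 ± 1.05 in WT (limma adjusted p = 0.0935) and 2.28 ± 0.22 with only WT arrays fitted (limma adjusted p = 3e-05). The paired differences were 0.36, 2.38 and 1.62 in TKO and 2.03, 1.59 and 1.63 in QKO. With the pair as a block the TKO difference was 1.45 ± 0.30 (limma adjusted p = 0.00461) and the QKO difference 1.75 ± 0.30 (limma adjusted p = 0.000368), both called. Without the block the fit over all arrays called neither, and a fit to the QKO arrays alone called QKO (1.75 ± 0.26, limma adjusted p = 0.00202) while 1 to the TKO arrays alone did not call TKO (limma adjusted p = 0.617).

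**Figure D2:**
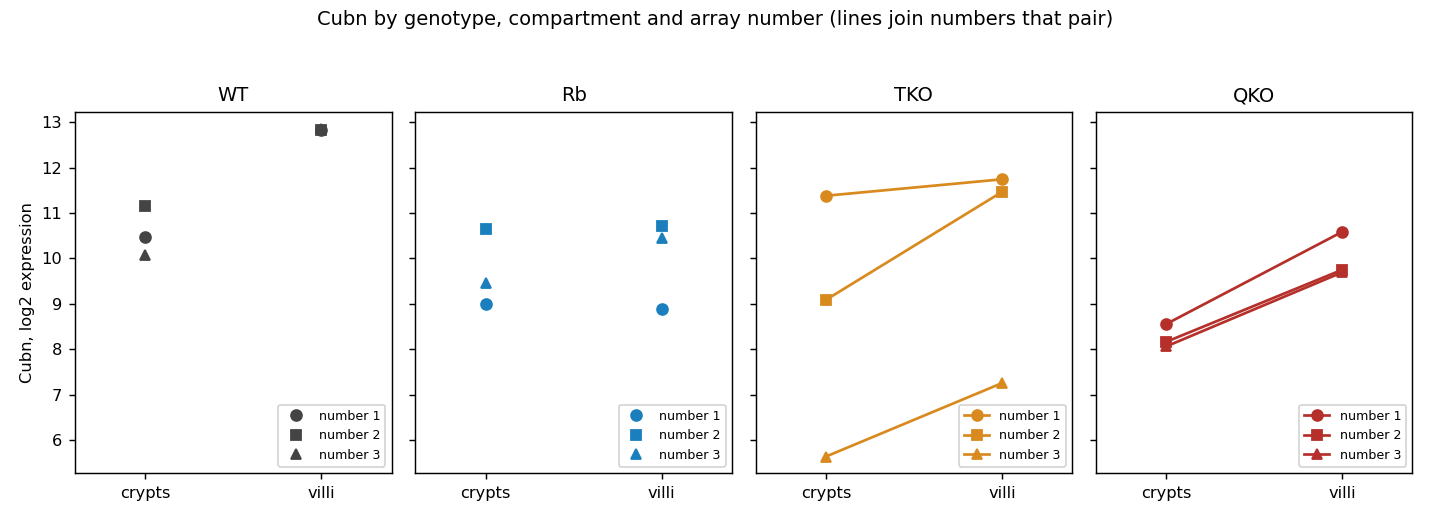
Log2 expression of Cubn (vertical axis) in crypts and villi, 1 panel per genotype, with a symbol for each array number. Lines join same-numbered crypts and villi, taken as pairs, in TKO and QKO only. The WT villus arrays sit together near 12.84, the TKO arrays run from 5.63 to 11.75, and all 6 lines rise from crypts to villi.

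Counted over the 10 genes, the QKO comparisons held most of the calls, and the 3 comparisons of a compartment share its QKO arrays. In QKO minus WT in crypts 1 gene was called higher and 4 lower, where the share over all genes was 13.3%, with 10.3% higher and 3.06% lower. The 10 genes' median difference was -0.49, against 0.07 over all genes. In QKO minus Rb in crypts 1 was called higher and 2 lower (17.2% of all genes called, 13.4% higher and 3.78% lower, medians -0.43 and 0.05), and in QKO minus TKO in crypts 0 were higher and 1, Fabp6, lower (1.61% called, 1.42% higher and 0.181% lower, medians -0.28 and 0.08). For villi the counts were 2 higher and 3 lower in QKO minus WT (16.8% called, 11.6% higher and 5.21% lower, medians -0.95 and 0.03), 0 and 5 in QKO minus Rb (22.2% called, 14.2% higher and 8.02% lower, medians -0.52 and 0.08), and 0 and 2, Plb1 and Osr2, in QKO minus TKO (6.68% called, 5.51% higher and 1.17% lower, medians -0.25 and 0.04). QKO villi 3 and QKO crypts 2 had the highest array medians, 5.26 and 5.17, with 4.97 to 5.08 on the other arrays. Without these arrays the calls numbered 3 in QKO minus WT in crypts, 3 in QKO minus Rb in villi and 0 in both comparisons with TKO. With sex as a covariate, the calls were 1, 0 and 0 in crypts and 0, 3 and 0 in villi, against WT, Rb and TKO in that order. Because every QKO array was male, that covariate was read only from Rb villi and TKO, the groups that held both sexes. No share of all genes called is given for the fits without those arrays or with sex. The changes in count are therefore not read as particular to the 10 genes.

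**Figure D3:**
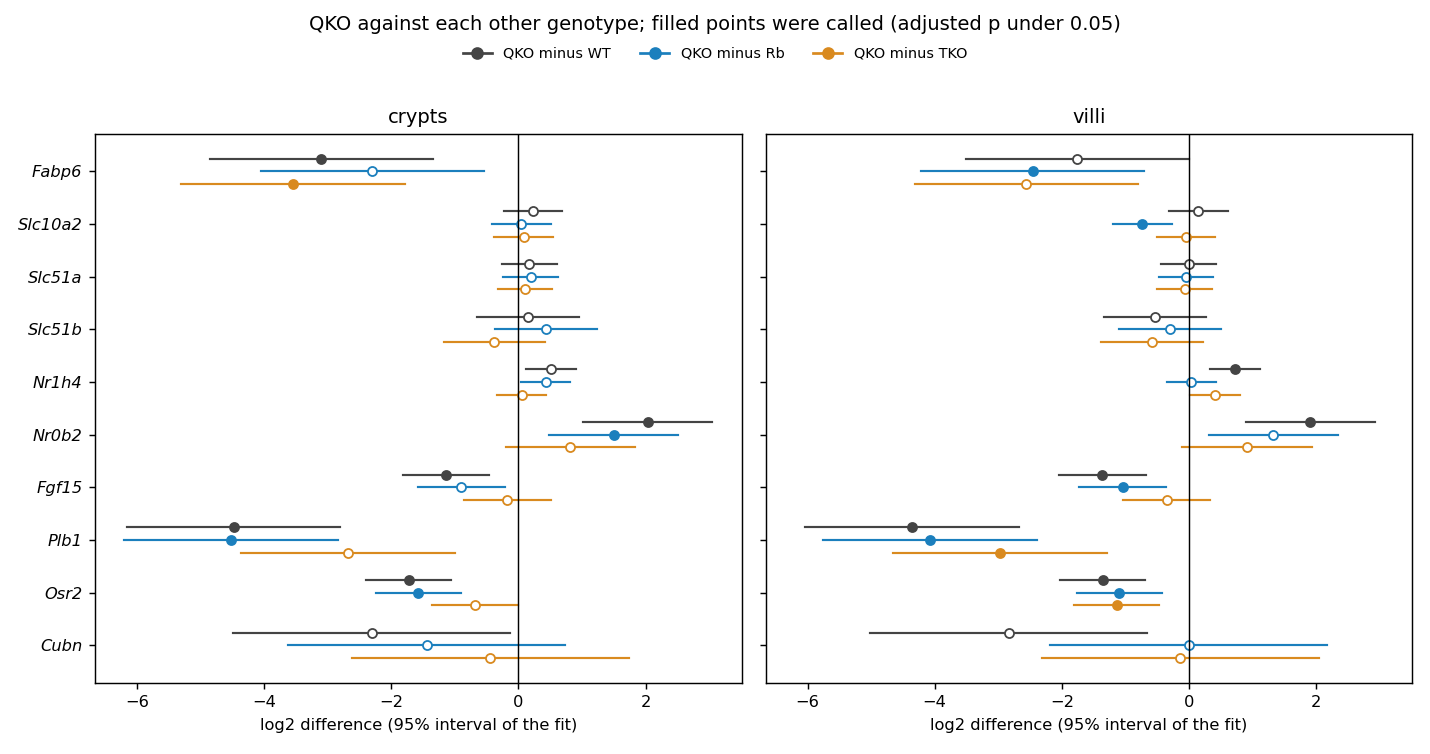
Log2 differences of QKO from WT, Rb and TKO (horizontal axis, with 95% intervals from the fit over 24 arrays) for the 10 genes in crypts and villi. Filled points were called. Plb1 lies far to the left, at -4.51 to -2.68, Slc51a lies around 0, and Nr0b2 lies to the right in all 6 comparisons.

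The remaining comparisons held few calls. TKO minus WT had 0 of 10 called by limma in crypts, where 4.73% of all genes were called, and 0 in villi, where 9.77% were. At an unadjusted p under 0.05 these counts were 5 (Osr2, Fgf15 and Plb1 below WT, Nr0b2 and Nr1h4 above) and 2 (Fgf15 and Cubn, both below). Here and below, a count over all genes at that unadjusted p is given only for Rb minus WT in crypts. Other counts at that p have none beside them, so they may be common. Rb minus WT had 0 of 10 called in crypts, with 0% of all genes called and, at an unadjusted p under 0.05, 0 of 10 and 709 of 18193. It had 2 called higher in villi, Slc10a2 and Nr1h4, with 14.8% called, 8.59% higher and 6.19% lower. Villi minus crypts had 1 called higher and 1 lower in WT (37.4% called, 18.8% higher and 18.6% lower), 2 higher and 1 lower in Rb (17.3% called, 7.61% higher and 9.65% lower), 0 in TKO (15.4% called, 1 member at an unadjusted p under 0.05) and 0 in QKO (33.4% called, 0 members at an unadjusted p under 0.05). The pair block raised the TKO and QKO counts to 2 each, Slc51b and Cubn, with no share of all genes for that fit given here. All 3 Rb calls were lost when WT crypts 3 and Rb crypts 2 were left out, and when sex was a covariate. Whether the compartment difference itself differed from that in WT was tested for each genotype, and 0 of 10 genes passed in Rb, TKO or QKO, where 5.22%, 3.43% and 5.44% of all genes did. At an unadjusted p under 0.05 the counts were 2, 0 and 0.

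Of other genes of bile acid handling, 22 were measured from a list of 25. In QKO minus TKO 0 of 22 were called by limma in crypts (3 at an unadjusted p under 0.05, with 1.61% of all genes called), and in villi 1 was (6.68% of all genes called), the basolateral exporter Abcc3 (0.65 ± 0.15, limma adjusted p = 0.0125). Against WT, QKO crypts had 4 higher and 2 lower, where 10.3% and 3.06% of all genes were. Among them the cholesterol uptake protein Npc1l1 was lower (-0.92 ± 0.21, limma adjusted p = 0.00533), and the xenobiotic and bile acid receptor Nr1i2 (0.91 ± 0.24, limma adjusted p = 0.0132) and the sterol exporter Abcg5 (0.67 ± 0.19, limma adjusted p = 0.024) were higher. QKO villi had 3 higher and 1 lower than WT, where 11.6% and 5.21% of all genes were, again with Npc1l1 lower (-0.83 ± 0.21, limma adjusted p = 0.00879). Npc1l1 was also lower in TKO than in WT in crypts (-0.86 ± 0.21, limma adjusted p = 0.0195) and villi (-0.87 ± 0.21, limma adjusted p = 0.00865), and in Rb villi (-0.74 ± 0.21, limma adjusted p = 0.018). These comparisons share the WT arrays. Rb villi had 1 higher and 3 lower than WT, where 8.59% and 6.19% of all genes were, with the canalicular exporter Abcc2 lowest (-1.43 ± 0.30, limma adjusted p = 0.00198). The median of the 22 lay between -0.25 and 0.25 in the 10 genotype comparisons. Of 10 genes of the cubilin complex and cobalamin handling, 0 were called in QKO minus WT in crypts (4 at an unadjusted p under 0.05 by limma), where 13.3% of all genes were. In villi 1 was called higher and 3 lower, where 11.6% and 5.21% of all genes were. Mmachc, which processes cobalamin in the cytosol, rose (1.24 ± 0.28, limma adjusted p = 0.00506), and the cobalamin carriers Cblif (-0.44 ± 0.13, limma adjusted p = 0.0201) and Tcn2 (-0.49 ± 0.17, limma adjusted p = 0.047) and the lysosomal transporter Abcd4 (-0.49 ± 0.16, limma adjusted p = 0.0368) fell.

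Some genes of the upper small intestine were higher in QKO. Of 20 measured genes listed as proximal, QKO minus TKO had 6 higher, 0 lower and 14 not called in crypts, where 1.42% of all genes were higher and 0.181% lower. In villi it had 11 higher, 0 lower and 9 not called, where 5.51% and 1.17% were. The medians of the 20 were 0.39 and 1.43. The 11 in villi include the hormone genes Gip, Cck and Sct, which are made by enteroendocrine cells, and all 4 enteroendocrine markers were higher there too. In villi Anxa10, an annexin of stomach and duodenum, rose (5.21 ± 0.31, limma adjusted p = 2.77e-09), as did the iron reductase Cybrd1 (3.10 ± 0.23, limma adjusted p = 5.17e-08) and the calcium channel Trpv6 (4.23 ± 0.40, limma adjusted p = 3.57e-06), each against TKO values near or below the array medians. In crypts Anxa10 (2.40 ± 0.31, limma adjusted p = 0.000468), the duodenal transcription factor Pdx1 (2.37 ± 0.33, limma adjusted p = 0.000832) and the calcium binding protein S100g (3.72 ± 0.55, limma adjusted p = 0.00125) rose. Pdx1 read 7.99 to 9.10 on the QKO arrays and at most 6.83 on all others, and the iron exporter Slc40a1 read 11.21 to 12.68 on QKO arrays and at most 9.86 on all others. These array values were added after they were seen. The share of all genes with QKO above all other arrays was not counted, so such a separation may be common. Against WT the counts were 8 higher and 1 lower in crypts, the exception being the adenosine deaminase gene Ada (-4.70 ± 0.61, limma adjusted p = 4.6e-05), and 10 higher and 0 lower in villi, where 10.3% and 11.6% of all genes were higher. Against Rb they were 8 and 1 in crypts, again with Ada lower, and 11 and 0 in villi, where 13.4% and 14.2% of all genes were higher. Gata4, a transcription factor of the upper small intestine, differed by -0.28 to 0.43 in the 6 comparisons of QKO with another genotype, and limma called none of these (adjusted p = 0.0948 or above, and 1 of 6 at an unadjusted p under 0.05).

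Among 11 other measured genes of the distal small intestine, 0 were called by limma in QKO minus WT or QKO minus TKO in crypts (1 each at an unadjusted p under 0.05, with 13.3% and 1.61% of all genes called). Hoxb7 was lower in QKO minus Rb in crypts (-0.46 ± 0.13, limma adjusted p = 0.0149, with 3.78% of all genes lower). It lay below the array median on every array of both groups (means 3.71 and 4.17), so no expression of Hoxb7 is read from it. The shares of all genes called lower were 0.181% to 8.02% over the 6 comparisons of QKO, so a low count among 11 says nothing particular to them. In villi the hormone gene Pyy was higher in QKO than in WT (1.78 ± 0.35, limma adjusted p = 0.00137), Rb (2.68 ± 0.35, limma adjusted p = 1.72e-05) and TKO (1.96 ± 0.35, limma adjusted p = 0.00172). Nts (neurotensin, 2.64 ± 0.56, limma adjusted p = 0.00175) and Hoxd9 (0.35 ± 0.12, limma adjusted p = 0.042, with readings near the array medians) were also higher than in Rb, and the phosphate transporter Slc34a2 was lower than in TKO (-2.24 ± 0.66, limma adjusted p = 0.0467). In QKO villi against WT, Rb and TKO, 11.6%, 14.2% and 5.51% of all genes were called higher. All enteroendocrine markers were called higher there too, and their part in the Pyy and Nts values was not tested. Car4, a carbonic anhydrase from the colon list, was lower in all 6 QKO comparisons, by -1.56 ± 0.34 from TKO in crypts (limma adjusted p = 0.0198) and -2.48 ± 0.34 from TKO in villi (limma adjusted p = 0.000129). It was the gene with the second highest correlation with Fabp6 below, and it is also made in the small intestine. Slc26a3, from the same colon list, went the other way. It was called higher in QKO than in Rb in crypts (0.93 ± 0.16, limma adjusted p = 0.000454) and villi (0.61 ± 0.16, limma adjusted p = 0.00805). It was also higher than in WT in crypts (0.94 ± 0.16, limma adjusted p = 0.000548), and the other QKO comparisons did not call it.

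**Figure D4:**
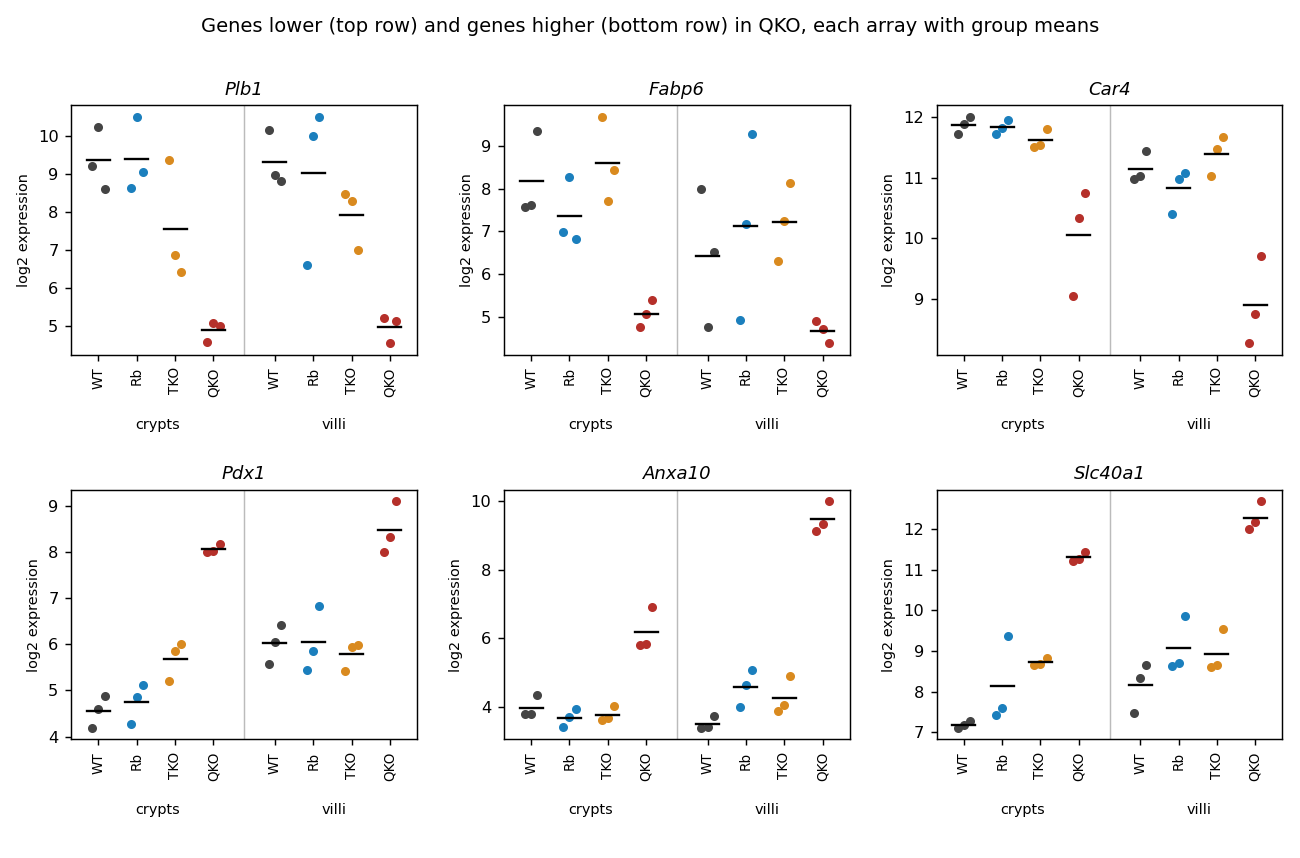
Log2 expression (vertical axis, a separate range for each gene) of Plb1, Fabp6 and Car4 (top) and of Pdx1, Anxa10 and Slc40a1 (bottom) on the 24 arrays, with group means as lines. QKO means are the lowest of their compartment in the top panels and the highest in the bottom panels, where QKO arrays reach 7.99 or more for Pdx1. Car4, Pdx1 and Slc40a1 were added after their values were seen.

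Markers of other cell types moved with some of these comparisons. The mean of 9 pancreatic acinar genes was 6.18, 8.92 and 8.94 on the QKO crypt arrays and 5.51 to 6.01 on the other crypt arrays. In QKO minus TKO in crypts, where 1.42% of all genes were called higher, 8 of the 9 were, led by Cel (2.19 ± 0.34, limma adjusted p = 0.00157), Cpb1 (3.54 ± 0.58, limma adjusted p = 0.0023) and Cpa1 (2.96 ± 0.51, limma adjusted p = 0.00374). In villi 0 of the 9 were called by limma in any comparison of QKO with another genotype (0 against WT, 1 against Rb and 1 against TKO at an unadjusted p under 0.05), with list means of 5.58 to 6.13 in QKO, while Plb1 was low there too. Over all genes 16.8%, 22.2% and 6.68% were called in these comparisons with WT, Rb and TKO. QKO crypts 1, with the low acinar mean, read 4.75 for Fabp6 and 4.56 for Plb1. In QKO minus TKO in villi 4 of 4 enteroendocrine and 4 of 5 goblet genes were called higher, with 2 of 5 genes each for T cells, macrophages with MHC class II, and stroma, and in crypts 1 of 4 enteroendocrine genes (Tph1) and 0 of those other lists were. The shares of all genes called higher were 5.51% in villi and 1.42% in crypts. Against WT, 5 of 5 goblet genes were called lower in QKO crypts and 2 of 5 in villi, where 3.06% and 5.21% of all genes were. Of 14 enterocyte genes, 0 were called by limma in QKO minus TKO in either compartment (5 in crypts and 4 in villi at an unadjusted p under 0.05), where 1.61% of all genes were called in crypts and 6.68% in villi. Their mean was 12.32 to 12.43 in QKO crypts and 12.89 to 13.33 in QKO villi. The part of the acinar, enteroendocrine, goblet and other cells in the results above was not tested beyond these values.

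Over the 24 arrays, the genes most like Fabp6 were Gp1bb (Pearson r = 0.76), Car4 (0.73), Bcl2l15 (0.67), Snapc1 (0.66) and Lgals2 (0.65), among 8953 genes above the median level searched. Among the other 9 genes of the list, Osr2 (0.69) and Plb1 (0.68) were the most like it, and Nr0b2 had the most negative value (-0.46). The genes most like Slc10a2 were Tubgcp4 (0.73), Tank (0.72), Crybg1 (0.71), Map3k3 (0.70) and Ssh2 (0.69), and its r with Fabp6 was 0.23. Slc10a2 lay below the array median on every array, so no likeness of expression is read from its values of r. All values of r here describe arrays that share genotype, compartment and processing, and carry no test. Within groups, where genotype and compartment are constant, pairs of the 10 genes had the same highest array in 0 to 7 of 8 groups and the same lowest array in 0 to 7. Fabp6 shared its highest array with Plb1 in 5 and its lowest in 2, and with Nr1h4 in 6 and 3. Fgf15 and Osr2 shared the highest in 7 and the lowest in 4, and Slc51a and Slc51b the highest in 3 and the lowest in 7.

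By group mean, each gene gave a different order of the 8 groups, and most neighbours overlapped. Plb1 separated TKO crypts (mean 7.55) from QKO villi (4.95), Fgf15 separated Rb crypts (5.55) from TKO villi (4.89), Osr2 separated Rb crypts (9.07) from WT villi (8.24), Cubn separated WT villi (12.85) from WT crypts (10.57), and Nr0b2 separated Rb crypts (6.93) from WT crypts (6.40). For Fabp6, Slc10a2, Slc51a, Slc51b and Nr1h4 no neighbours in the order were separate, and the whole range of means was 4.66 to 8.61 for Fabp6 and 11.33 to 11.91 for Slc51a.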

How the data were processed

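The values used are the series' value table as deposited: log2 expression for 45101 probe sets on 24 Affymetrix mouse arrays, 3 per group, grouped by the titles and sources in the labels. Per the labels, total RNA was extracted with Trizol and biotinylated cRNA was made from 3 ug of it. How the authors summarised and normalized the log2 values is not stated in the labels or files, and they were not normalized again. They range from 2.29 to 14.89. The platform annotation pairs 34945 probe sets with 1 gene, 932 with several and 9160 with none, 64 were controls, and 0 value columns were left out. Symbols of 34741 were updated through Entrez identifiers. No dim gene was removed.

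Each of 18193 genes took its probe set of highest mean. limma 3.58.1 in R 4.3.3 fitted 1 mean per group over all arrays with variances trended on intensity (16 residual and 4.86 prior degrees of freedom), 2-sided, and was tested on simulated data. The number of arrays limits the precision. Array pairs with identical values numbered 0, and within-group correlations were 0.98 to 0.994. Deviations from group means correlated between same-numbered crypts and villi at 0.61, 0.55 and 0.64 in TKO and 0.55, 0.25 and 0.37 in QKO. These were therefore taken as pairs, while in WT (0.01, 0.13 and 0.00) and Rb (0.06, -0.01 and -0.24) the values do not pair. Same-numbered arrays of different genotypes in 1 compartment correlated at -0.24 to 0.42. QKO numbers 2 and 3 lie within that range, so the pairing in QKO is less sure than in TKO.

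The members and gene lists were chosen with earlier results of these data known. All 10 genes are named in every comparison. From each list the text names the 3 called genes with the smallest p where a comparison is described, and those a small count refers to. For likeness it names the 5 genes of highest r. Pdx1 and Slc40a1 values per array, Gata4, Car4 and the later mentions of Npc1l1 were added after their values were seen. Alternatives were quantile normalization, centring, other probe sets or their mean, a filter on dim genes, no trend, array weights, fits to the groups compared alone, replicate blocks and left-out arrays. Leaving out QKO crypts 2 with QKO villi 3, and sex as a covariate, were chosen after seeing the data.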

Additional observations from a re-analysis of the deposited data

How the results depend on the processing

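Of the alternatives run for the 28 called differences, 367 kept direction and call, 122 kept direction without the call, and 3 reversed, all with the dim second Osr2 probe set (QKO minus Rb in crypts 0.0065, QKO minus WT in villi 0.0635 and QKO minus Rb in villi 0.11). The cause was not tested. Of the 28, 9 kept their call without each array in turn. Counts of the 10 genes called that moved were as follows. No share of all genes called under each alternative is given beside them, so they are not read as changes particular to the 10 genes. With only the groups compared, villi minus crypts gave 4 in WT (2 in all arrays), 1 in Rb (3) and 1 in QKO (0), TKO minus WT gave 2 in crypts and 1 in villi (0 and 0), QKO minus Rb gave 5 in crypts (3) and 2 in villi (5). With the replicate block, villi minus crypts gave 4 in WT, 5 in Rb, 2 in TKO and 2 in QKO, TKO minus WT gave 1 in crypts and 1 in villi, and the Rb difference in villi minus crypts from WT gave 1 (0), which was Cubn (-1.97 ± 0.42, limma adjusted p = 0.0113). In WT and Rb, and between genotypes, arrays share only a number. The block moved no other count by over 1.5 times. With array weights, the counts were 5 for Rb villi minus crypts, 1 for TKO minus WT in crypts and in villi, 0 for QKO minus TKO in crypts (1) and 1 in villi (2), and 1 for the Rb difference from WT. Quantile normalization gave 0 for QKO minus TKO in crypts and 1 for TKO minus WT in villi. Centring, the filter on dim genes and the fit of every probe set gave 1 each for TKO minus WT in crypts, the filter 1 for Rb minus WT in villi (2), where 8 members were left, and the mean of probe sets 0 for QKO minus TKO in villi. Without WT crypts 3 and Rb crypts 2, Rb villi minus crypts gave 0 and TKO minus WT in villi 1. Without QKO crypts 2 and QKO villi 3, QKO gave 3 against WT in crypts (5), 0 against TKO in crypts and in villi, and 3 against Rb in villi. With sex as a covariate, Rb villi minus crypts gave 0, and QKO gave 1, 0 and 0 against WT, Rb and TKO in crypts and 0, 3 and 0 in villi.

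Without each array in turn, the counts ran from 0 to 3 for villi minus crypts in WT, 0 to 4 in Rb, 0 to 0 in TKO and in QKO, 0 to 0 for Rb minus WT, 0 to 1 for TKO minus WT, 3 to 5 for QKO minus WT, 2 to 3 for QKO minus Rb and 0 to 1 for QKO minus TKO in crypts, 0 to 2, 0 to 0, 4 to 5, 1 to 6 and 0 to 1 for the same comparisons in villi, and 0 to 0 for the 3 differences from WT. Scaling moved the all-gene median by at most 0.1. Among called genes, and not among all genes, centring moved the share called higher from 40.4% to 30% in QKO villi minus crypts. In villi that share moved from 68.9% to 54.3% in QKO minus WT. It moved from 63.9% to 47% in QKO minus Rb and from 82.6% to 65.2% in QKO minus TKO in villi.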

Other observations

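The colon list moved gene by gene. Of its 6 measured genes, QKO minus WT in crypts had 1 called higher, the chloride and bicarbonate exchanger Slc26a3 (0.94 ± 0.16, limma adjusted p = 0.000548), and 1 lower, Car4, where 10.3% and 3.06% of all genes were. Retnlb, a goblet cell antibacterial protein, was called higher in TKO than in WT crypts (5.69 ± 1.59, limma adjusted p = 0.0423), where it read 3.98, 11.49 and 12.71 on the 3 TKO crypt arrays from lowest to highest, and 3.67 to 3.76 in WT. In QKO crypts Retnlb differed from WT by 0.29 ± 1.59 (limma adjusted p = 0.935). Among 4 stem cell genes, Lgr5 (-1.13 ± 0.36, limma adjusted p = 0.0427) and Smoc2 (-1.0 ± 0.33, limma adjusted p = 0.0464) were called lower in QKO than in WT crypts, where 3.06% of all genes were. In QKO minus TKO in crypts limma called 0 of them (0 at an unadjusted p under 0.05) and 1.61% of all genes. Of 3 measured B and plasma cell genes, Cd79a (-0.83 ± 0.22, limma adjusted p = 0.0154) and Ms4a1 (-1.0 ± 0.32, limma adjusted p = 0.0404) were called lower in QKO than in WT crypts. Jchain, the brightest, was not (-0.30 ± 0.76, limma adjusted p = 0.852). Cd79a and Ms4a1 lay below the array median on every QKO crypt array, and 3.06% of all genes were called lower there.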
